A study of Rattus norvegicus with 9 samples.

Results

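The genes that copy DNA and run S phase were followed in cultured rat fibroblasts (Fb) from 3 sources, as a hand-written list of 41 gene symbols. The list was applied by symbol alone, and 40 of the 41 were among the 32883 genes of the count table. E2f1 was not analysed here. All 40 passed the expression filter, which kept 13273 genes. The Fb came from the epineurium of the sciatic nerve (Fb-Epn), which is the connective tissue sheath around the nerve, from the nerve parenchyma inside that sheath (Fb-Par), and from abdominal skin (Fb-Skn), with 3 libraries each. All were wild-type, from male Lewis rats of 10 weeks, grown untreated in medium with fetal bovine serum and passaged 1 time, 3 to 4 days after seeding. By the methods of the study the nerves came from 2 rats and the skin from 1 other rat, so the 3 libraries of a type are not 3 animals and the p-values measure only the spread between these libraries. Nerve and skin cannot be told apart from the rats they came from. Fb-Epn and Fb-Par came from nerves of the same 2 rats, and which library came from which rat is not given in the sources used here.

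Poly(A) RNA was sequenced, and the total counts were 10084584 to 12310506 per library. TMM scaling factors were 0.955 to 1.03, and no pair of libraries of a type was a repeat of the same data. All 8 measured fibroblast markers were found in each type, with a summed level of 31465 to 40263 TPM per library, where TPM is a level corrected for gene length and sequencing depth. Markers of other cells also differed between the types. The 11 macrophage and leukocyte markers summed to 388 to 417 TPM in Fb-Epn, 107 to 113 TPM in Fb-Par and 27.8 to 32.0 TPM in Fb-Skn, and none of the 11 was at 0 throughout a type. The 13 Schwann cell markers summed to 252 to 263 TPM, 313 to 321 TPM and 20.5 to 22.6 TPM, in the same order, and Sox10, Erbb3, Cdh19 and Gfap were at 0 in every Fb-Skn library. The 6 mural markers summed to 84.7 to 85.6 TPM, 395 to 411 TPM and 160 to 173 TPM, and of these Rgs5 and Kcnj8 were at 0 in Fb-Skn. The 6 perineurial markers summed to 211 to 216 TPM, 87.7 to 95.1 TPM and 113 to 125 TPM. Most of this was Slc2a1 (mean 145, 34.9 and 69 TPM) and Tjp1 (54, 47.2 and 39.7 TPM). Cldn1 had means of 0.1, 0.324 and 0 TPM and Ocln of 0.396, 0.616 and 0.107 TPM, both highest in Fb-Par. Lypd2 was at 0 in every type. The 9 endothelial markers summed to 33.7 to 38.5 TPM, 26.1 to 27.1 TPM and 24.3 to 34.3 TPM. Of these, Cdh5, Cldn5, Emcn and Esam were at 0 in Fb-Skn, and Cldn5 was also at 0 in Fb-Par. The 7 keratinocyte markers summed to at most 4.76 TPM in any library. The part of these cells in the results that follow was not tested. In bulk RNA, fewer cycling cells and less RNA per cycling cell cannot be told apart.

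A cell prepares to copy its DNA by loading the ring-shaped helicase Mcm2 to Mcm7 onto origins, which is called licensing and needs the origin recognition complex, Cdc6 and Cdt1. In S phase, Cdc45 and the GINS complex switch the helicase on, DNA polymerases with the Pcna clamp copy both strands, and Fen1 and Lig1 join the fragments of the lagging strand. Deoxynucleotides for this work come from ribonucleotide reductase, made of a large subunit (Rrm1) and a small subunit (Rrm2), and from thymidylate synthase (Tyms) and thymidine kinase (Tk1). Transcription factors of the E2F family switch most of these genes on as cells leave G1, through a short DNA word near the transcription start.

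The promoters are printed first, because the E2F word is the sequence feature that genes of this kind are best known for. RefSeq promoters of the rat assembly GRCr8, from 250 bases before to 50 bases after the start, were matched for 33 of the 40 members. Orc1, Cdc6, Mcm4, Dscc1, Rrm2, E2f8 and Ccne2 had no entry. The words TTTGGCGC, TTTCCCGC, TTTCGCGC and TTTGCCGC were searched on both strands, with overlapping matches allowed. At least 1 word was in 16 of the 33 promoters (48.5%), in 2.14% of all 33469 rat promoters and in 3.94% of the 10852 promoters of tested genes. These are descriptions of letters, and no binding was measured. Below are the 6 members with a word that had the largest fold change in any comparison, and Rrm1, which has no word and was the single member lower in Fb-Epn than Fb-Skn. Capitals mark the E2F words, and each line runs 5′ to 3′ on the strand of the gene.
Mcm5 (GRCr8 chr19:13488563-13488862, plus strand): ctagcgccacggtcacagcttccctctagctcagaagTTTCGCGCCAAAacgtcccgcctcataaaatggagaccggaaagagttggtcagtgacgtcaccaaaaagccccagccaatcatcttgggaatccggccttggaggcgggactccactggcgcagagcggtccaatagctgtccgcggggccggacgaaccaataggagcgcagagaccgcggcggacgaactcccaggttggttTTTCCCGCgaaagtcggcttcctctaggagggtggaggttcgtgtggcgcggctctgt
Pole (GRCr8 chr12:52053613-52053912, minus strand): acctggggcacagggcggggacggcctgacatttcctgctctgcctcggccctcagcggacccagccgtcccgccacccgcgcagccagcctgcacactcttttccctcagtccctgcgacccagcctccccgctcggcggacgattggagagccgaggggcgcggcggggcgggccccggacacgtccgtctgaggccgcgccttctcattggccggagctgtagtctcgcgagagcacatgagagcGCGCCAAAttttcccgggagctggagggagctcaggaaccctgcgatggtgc
Gins1 (GRCr8 chr3:160184670-160184969, plus strand): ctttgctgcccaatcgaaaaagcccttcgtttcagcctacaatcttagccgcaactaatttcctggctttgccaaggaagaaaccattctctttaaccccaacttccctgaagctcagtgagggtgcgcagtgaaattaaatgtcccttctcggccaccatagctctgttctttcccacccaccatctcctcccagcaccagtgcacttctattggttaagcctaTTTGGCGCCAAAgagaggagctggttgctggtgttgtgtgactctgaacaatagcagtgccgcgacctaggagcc
Cdt1 (GRCr8 chr19:67528999-67529298, plus strand): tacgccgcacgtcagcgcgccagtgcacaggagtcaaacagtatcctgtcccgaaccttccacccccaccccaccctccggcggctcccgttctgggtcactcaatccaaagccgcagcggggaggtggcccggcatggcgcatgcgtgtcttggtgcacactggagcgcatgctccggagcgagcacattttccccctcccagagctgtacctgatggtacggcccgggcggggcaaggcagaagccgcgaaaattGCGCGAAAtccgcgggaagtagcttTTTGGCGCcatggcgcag
Mcm3 (GRCr8 chr9:30733697-30733996, minus strand): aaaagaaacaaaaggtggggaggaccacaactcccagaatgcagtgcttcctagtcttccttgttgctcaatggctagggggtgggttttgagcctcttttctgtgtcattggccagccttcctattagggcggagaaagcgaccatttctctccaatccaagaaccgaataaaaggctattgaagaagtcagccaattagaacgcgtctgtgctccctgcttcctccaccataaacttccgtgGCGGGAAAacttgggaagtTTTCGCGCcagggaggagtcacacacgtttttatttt
Mcm6 (GRCr8 chr13:42404303-42404602, minus strand): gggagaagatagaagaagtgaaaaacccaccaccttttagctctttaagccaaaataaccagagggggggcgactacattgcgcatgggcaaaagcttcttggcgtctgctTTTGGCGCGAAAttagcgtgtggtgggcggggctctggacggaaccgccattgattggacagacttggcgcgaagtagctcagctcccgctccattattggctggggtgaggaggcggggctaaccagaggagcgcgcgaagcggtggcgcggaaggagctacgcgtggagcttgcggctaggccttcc
Rrm1 (GRCr8 chr1:166235654-166235953, plus strand): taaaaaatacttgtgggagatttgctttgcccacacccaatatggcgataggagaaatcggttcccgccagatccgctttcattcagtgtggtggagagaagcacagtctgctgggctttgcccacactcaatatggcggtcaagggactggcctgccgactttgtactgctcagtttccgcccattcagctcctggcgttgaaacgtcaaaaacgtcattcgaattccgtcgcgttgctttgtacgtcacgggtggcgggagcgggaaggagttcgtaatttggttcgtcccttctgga

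The words sat close to the start. Of the 16 members with a word, 12 (75%) had one lying wholly within 50 bases on either side of the start, against 260 of the 716 promoters with a word in the whole table (36.3%). The 25 matches were unevenly spread: 8 members had more than 1, while only 28 promoters of the whole table did (0.0837%). In Mcm2, Mcm5, Mcm6 and Gins1, a pair of matches on opposite strands overlapped. The other motifs searched were common in all promoters. CCAAT, the box bound by the NF-Y factor, was in 20 of 33 (60.6%) against 37.2% of promoters of tested genes. GGGCGG, the GC box, was in 23 of 33 (69.7%) against 61.4%. Median GC content was 60% in the members and 60.7% in promoters of tested genes.

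**Figure D1:**
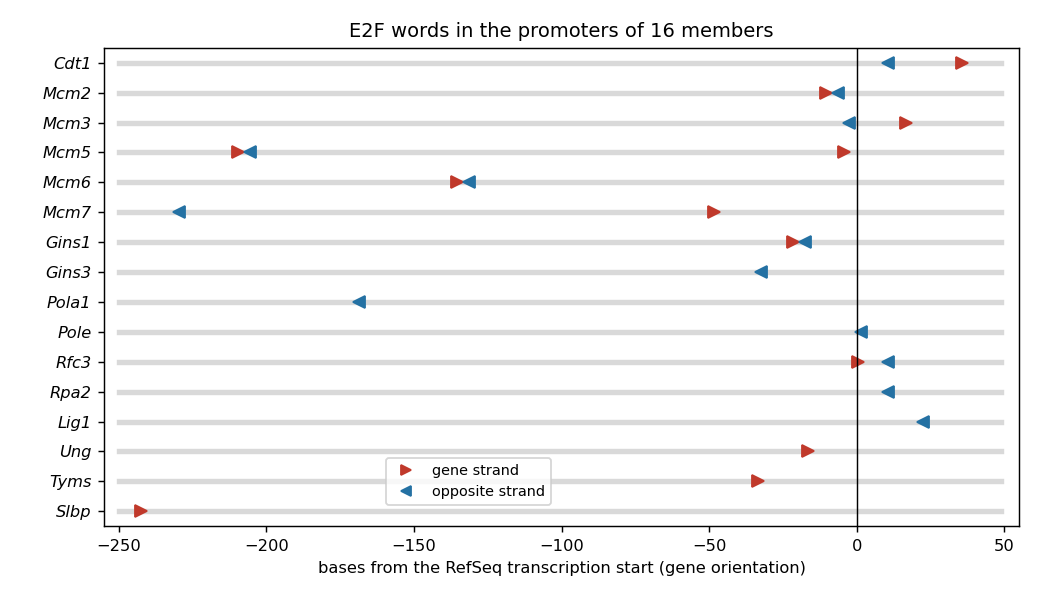
Position of each E2F word in the promoters of the 16 members that hold one, in bases from the RefSeq start (0, black line), with the window of 250 bases before to 50 after as a grey bar. Arrowheads give the strand of the match. For 12 of the 16 members a word lies within 50 bases of the start.

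The replication genes were highest in Fb-Epn. The question of each comparison was how Fb of one source differ from those of another. Against Fb-Skn, 35 of the 40 members were higher in Fb-Epn and 1, Rrm1, was lower (edgeR quasi-likelihood F test, Benjamini-Hochberg adjusted p under 0.01), where 23.0% of all tested genes were called higher and 20.9% lower. The median log2 fold change of the members was 1.01, and that of all tested genes was -0.00. Gins2, Gins3, Rfc4 and Dscc1 were not called, at 0.21 to 0.83. Against Fb-Par, 39 members were higher in Fb-Epn and 0 lower, where 20.2% of all tested genes were higher and 18.6% lower. All 40 log2 fold changes were above 0, so an unadjusted p gives no lower member either, and DESeq2 and limma also gave 0. Their median was 1.28, and the single member without a call was Gins2, at 0.13 (SE 0.15).

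Fewer members were called between Fb-Par and Fb-Skn. In Fb-Par, 12 members were lower than Fb-Skn and 1, Slbp, was higher, while 23.2% of all tested genes were higher and 22.4% lower. The 12 were Mcm3, Mcm4, Mcm7, Mcm10, Cdc45, Gins1, Pola1, Prim1, Rrm1, Rrm2, Tk1 and Uhrf1. The median log2 fold change was -0.33, and 8 of the 40 values were above 0. Calls of this comparison depended on single libraries and on the fit: without Fb-Par replicate 2 the number lower was 6, and with DESeq2 it was also 6. Prim1, Rrm1, Rrm2, Tk1 and Uhrf1 were called lower, and Slbp higher, in all 20 alternative fits. The 3 comparisons share libraries, so they are not independent of one another.

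Counted by library in TPM, every Fb-Epn library lay above all 6 other libraries for 38 of the 40 members, where this held for 18.6% of all tested genes. The exceptions were Gins2 and Rrm1. The summed level of the 40 members was 899 to 922 TPM in Fb-Epn, 388 to 420 TPM in Fb-Par and 511 to 528.5 TPM in Fb-Skn. Without Rrm1 the sum was 846 ± 13.2 TPM, 369 ± 15.3 TPM and 391 ± 7.95 TPM (mean ± SD, n = 3). Most of the distance between Fb-Par and Fb-Skn in the first sum was therefore the level of a single gene.

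**Figure D2:**
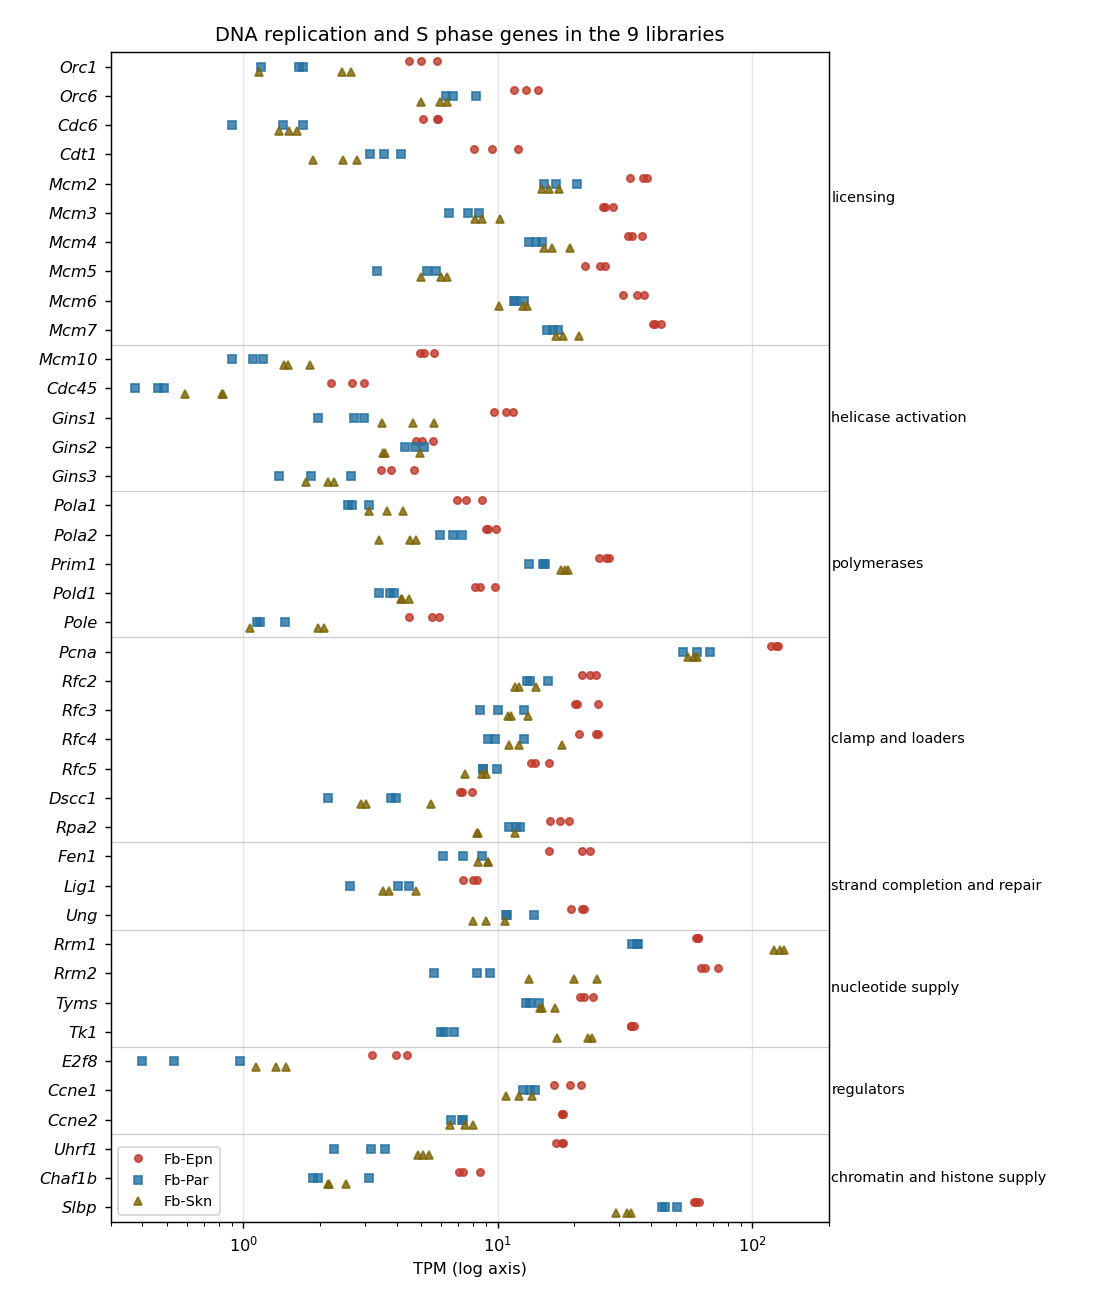
TPM of the 40 members in each of the 9 libraries (log axis), grouped by role, with circles for Fb-Epn, squares for Fb-Par and triangles for Fb-Skn. Fb-Epn lies to the right of both other types for 38 of 40 genes, while for Rrm1 the Fb-Skn libraries lie furthest to the right.

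In Fb-Epn, all 10 licensing genes were called above both other types, with a median log2 fold change of 1.26 against Fb-Skn and 1.49 against Fb-Par. The Orc1 call against Fb-Skn, at 14 to 75 counts per library over the 3 types, was lost without Fb-Epn replicate 3 or Fb-Skn replicate 2. Summed over the 10, the level was 232 ± 2.28 TPM in Fb-Epn, 85.8 ± 2.89 TPM in Fb-Par and 90.0 ± 3.31 TPM in Fb-Skn (mean ± SD, n = 3).

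Mcm7 (ENSRNOG00000001349, rn6 chr12:19306607-19314016), a subunit of the helicase ring, had the highest mean TPM of the licensing genes over the 9 libraries, though Mcm2 was higher in Fb-Par replicates 1 and 2 and Mcm4 in Fb-Skn replicate 2. Its level was 43.9, 40.7 and 41.7 TPM in the 3 Fb-Epn libraries, 16.5, 15.6 and 17.2 TPM in Fb-Par, and 17.0, 18.1 and 20.9 TPM in Fb-Skn. The Fb-Epn libraries stood clear of the rest, and the ranges of the other types overlapped. It was 2.05-fold higher in Fb-Epn than Fb-Skn (log2 1.04, SE 0.08, adjusted p = 4.8e-08) and 2.58-fold higher than Fb-Par. The small difference between Fb-Par and Fb-Skn passed the test (log2 -0.33, SE 0.09, adjusted p = 0.0043) but was lost in 3 of the 9 fits that left out a library (Fb-Par replicate 1 or 2, or Fb-Skn replicate 3). The annotation places Mir93, Mir25 and Mir106b inside Mcm7, with at most 1 count in any library.

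Mcm5 (ENSRNOG00000014336, rn6 chr19:14523554-14561278), the ring subunit with 3 E2F words in its promoter, changed most among the licensing genes. It stood at 22.1, 26.5 and 25.3 TPM in Fb-Epn, 3.34, 5.73 and 5.26 TPM in Fb-Par, and 6.32, 4.98 and 5.997 TPM in Fb-Skn. The Fb-Epn libraries were again separate, while Fb-Par and Fb-Skn overlapped. Expression was 5.22-fold higher in Fb-Epn than Fb-Par (log2 2.38, SE 0.16, adjusted p = 1.3e-08) and 3.86-fold higher than Fb-Skn. Fb-Par against Fb-Skn was not called (log2 -0.44, SE 0.18, adjusted p = 0.051).

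The 6 ring subunits work as one of each per ring, and their RNAs differed in level. Mcm5 was the least abundant of Mcm2 to Mcm7 in all 9 libraries. The most abundant of the 6 exceeded it 1.54 to 1.99 times in Fb-Epn, 2.95 to 6.14 times in Fb-Par and 2.69 to 3.84 times in Fb-Skn, in TPM, so the Fb-Epn ratios lay below all others. Cdt1, which loads the ring and is destroyed once S phase begins, was the only licensing gene besides Orc6 with a value above 0 in Fb-Par against Fb-Skn (log2 0.46, SE 0.23), and it was not called there. In Fb-Epn against Fb-Skn, Cdt1 was higher by 1.90 on the log2 scale (SE 0.22, adjusted p = 3.6e-06). Cdc6, a loader of the ring, rose by 1.73 and 2.04 on the log2 scale in Fb-Epn over Fb-Skn and Fb-Par.

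Genes that switch the helicase on were low in all types and changed unevenly. Cdc45 (ENSRNOG00000050071, rn6 chr11:86329012-86358453), part of the active helicase, had 2.99, 2.21 and 2.68 TPM in Fb-Epn, 0.485, 0.462 and 0.376 TPM in Fb-Par, and 0.833, 0.822 and 0.587 TPM in Fb-Skn. The 3 types did not overlap, with Fb-Par lowest. At 12 to 96 counts per library its level was the lowest of the members in 8 of the 9 libraries. It was 5.93-fold higher in Fb-Epn than Fb-Par (log2 2.57, SE 0.24, adjusted p = 4.1e-07), while its call in Fb-Par against Fb-Skn (log2 -0.91, adjusted p = 0.0089) was lost in 8 of the 9 fits without 1 library, all but that without Fb-Skn replicate 3. Cldn5 overlaps it on the other strand, with at most 5 counts.

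The GINS subunits act as 1 complex, yet their RNAs did not move alike in counts and TPM. Gins1 (ENSRNOG00000008091, rn6 chr3:146695344-146716816) was at 11.5, 10.8 and 9.69 TPM in Fb-Epn, 2.71, 1.96 and 2.98 TPM in Fb-Par, and 5.62, 3.51 and 4.65 TPM in Fb-Skn, so the types were separate. It was 4.17-fold higher in Fb-Epn than Fb-Par (log2 2.06, SE 0.26, adjusted p = 1.1e-05). Gins2 (ENSRNOG00000017575, rn6 chr19:54151048-54163608) had 5.56, 5.04 and 4.79 TPM in Fb-Epn, 4.31, 4.73 and 5.11 TPM in Fb-Par, and 3.59, 4.96 and 3.53 TPM in Fb-Skn. These ranges overlapped, and Gins2 was the only member with no call in any of the 3 comparisons. Gins3 was called against Fb-Par (log2 1.04, adjusted p = 0.0047) but not against Fb-Skn (log2 0.80, adjusted p = 0.019), and the first call was lost without Fb-Epn replicate 1 or 3, without Fb-Par replicate 1 or 3 and with the replicate block. Mcm10, which helps to start unwinding, was higher in Fb-Epn by 1.57 and 2.31 on the log2 scale over Fb-Skn and Fb-Par.

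All 5 polymerase genes were higher in Fb-Epn, with medians of 0.93 against Fb-Skn and 1.26 against Fb-Par on the log2 scale. Prim1 (ENSRNOG00000031993, rn6 chr7:2435553-2451165), the primase that lays down the first nucleotides of a new strand, was the most abundant. Its libraries gave 27.3, 26.7 and 24.9 TPM in Fb-Epn, 15.1, 15.3 and 13.3 TPM in Fb-Par, and 17.7, 18.4 and 18.8 TPM in Fb-Skn. The types did not overlap, and the steps were small: 1.30-fold between Fb-Epn and Fb-Skn (log2 0.38, adjusted p = 0.0045) and log2 -0.48 between Fb-Par and Fb-Skn (SE 0.10, adjusted p = 0.0012). The first of these calls was lost in 4 of the 9 fits without 1 library (Fb-Epn replicate 1 or 2, Fb-Skn replicate 1 or 2) and with DESeq2.

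Pole (ENSRNOG00000037449, rn6 chr12:52403529-52452040), the catalytic subunit of the leading-strand polymerase, changed most among the polymerases. Levels were 4.48, 5.51 and 5.85 TPM in Fb-Epn, 1.13, 1.45 and 1.16 TPM in Fb-Par, and 1.06, 2.07 and 1.97 TPM in Fb-Skn. The Fb-Epn libraries were highest, and Fb-Skn replicate 1 lay below all Fb-Par libraries. Pole was 4.27-fold higher in Fb-Epn than Fb-Par (log2 2.09, SE 0.21, adjusted p = 1.1e-06). Pola1, the catalytic subunit of polymerase alpha, was higher in Fb-Epn by 0.93 and 1.47 on the log2 scale. Its partner Pola2 was higher by 1.00 over Fb-Skn and by 0.51 over Fb-Par (adjusted p = 0.0099), and the latter call was lost in 8 of the 9 fits without 1 library, all but that without Fb-Skn replicate 1. Pola2 shares its annotated span with Cdc42ep2, which had up to 298 counts.

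Clamp and clamp loader genes, grouped here with Rpa2, which is neither, had log2 fold changes of at most 1.17. Of the 7, Rpa2 included, 5 were higher in Fb-Epn than Fb-Skn and 7 higher than Fb-Par, and none was called between Fb-Par and Fb-Skn. Rpa2 was higher in Fb-Epn by 0.75 over Fb-Skn and by 0.60 over Fb-Par on the log2 scale. Its call over Fb-Par was lost without Fb-Epn replicate 3 and with limma on log2(FPKM + 1). Pcna (ENSRNOG00000021264, rn6 chr3:124880698-124884570), the sliding clamp that holds polymerases on DNA, had 123.9, 118.5 and 126.9 TPM in Fb-Epn, 68.6, 53.3 and 60.8 TPM in Fb-Par, and 55.8, 58.9 and 60.7 TPM in Fb-Skn. It was the most abundant member in every nerve library. The Fb-Epn libraries were far above the rest, whose ranges overlapped. The fold was 1.91 over Fb-Skn (log2 0.93, SE 0.08, adjusted p = 1.2e-07) and 2.03 over Fb-Par.

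Dscc1 (ENSRNOG00000026502, rn6 chr7:94758800-94774569), a part of an alternative clamp loader, was at 7.91, 7.22 and 7.08 TPM in Fb-Epn, 3.80, 3.99 and 2.15 TPM in Fb-Par, and 2.89, 5.44 and 3.03 TPM in Fb-Skn. Fb-Epn lay above both other types. It was called against Fb-Par (log2 1.17, SE 0.28, adjusted p = 0.003) and not against Fb-Skn (log2 0.83, SE 0.28, adjusted p = 0.019), at 17 to 65 counts per library, and the call was lost without Fb-Epn replicate 1 or Fb-Par replicate 3. Among the loader subunits Rfc2 to Rfc5, log2 fold changes were 0.62 to 0.74 against Fb-Skn and 0.67 to 1.17 against Fb-Par.

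Strand completion and repair genes were all 3 higher in Fb-Epn. The Lig1 call against Fb-Skn was lost without Fb-Skn replicate 1 or 2. Ung (ENSRNOG00000000692, rn6 chr12:48246569-48254822), which removes uracil from DNA, had 19.3, 21.8 and 21.4 TPM in Fb-Epn, 10.9, 10.8 and 13.9 TPM in Fb-Par, and 9.01, 10.7 and 8.01 TPM in Fb-Skn. Fb-Epn was highest and Fb-Par lay just above Fb-Skn, a step that was not called (log2 0.21, SE 0.14). The log2 fold change was 1.04 over Fb-Skn (SE 0.14, adjusted p = 1.7e-05) and 0.82 over Fb-Par. Fen1 (ENSRNOG00000020531, rn6 chr1:226251518-226255886), the flap nuclease, had 21.4, 15.9 and 23.1 TPM in Fb-Epn, 8.65, 7.28 and 6.09 TPM in Fb-Par, and 9.13, 8.32 and 9.12 TPM in Fb-Skn. The lowest Fb-Epn library was still above all others. It was 2.75-fold higher in Fb-Epn than Fb-Par (log2 1.46, SE 0.16, adjusted p = 2.5e-06). AABR07006258.1 lies across Fen1 on the other strand, with up to 87 counts, and it is not stated whether counting used strand.

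Nucleotide supply held the single member that was lower in Fb-Epn than Fb-Skn. Rrm1 (ENSRNOG00000045752, rn6 chr1:167538263-167562688), the large subunit of ribonucleotide reductase, had 61.1, 61.5 and 60.3 TPM in Fb-Epn, 35.2, 35.4 and 33.6 TPM in Fb-Par, and 122.0, 133.1 and 129.0 TPM in Fb-Skn. The types were wide apart and the libraries of each close together, at 646 to 2559 counts. Rrm1 was 2.31-fold higher in Fb-Skn than Fb-Epn (log2 -1.21 for Fb-Epn against Fb-Skn, SE 0.04, adjusted p = 3.1e-12) and 4.08-fold higher than Fb-Par (log2 -2.03, SE 0.04, adjusted p = 1.5e-14). Between the nerve types it followed the other members, 1.77-fold higher in Fb-Epn (adjusted p = 7.0e-10). It was the most abundant member in all 3 Fb-Skn libraries and made up 23.9 to 25.7% of the summed member TPM there, against 6.54 to 6.83% in Fb-Epn and 8.39 to 8.79% in Fb-Par.

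Rrm2 (ENSRNOG00000054286, rn6 chr6:43884678-43889515), the small subunit whose supply follows S phase, had 62.8, 73.4 and 65.3 TPM in Fb-Epn, 9.33, 8.27 and 5.64 TPM in Fb-Par, and 24.6, 13.3 and 19.9 TPM in Fb-Skn. The order was Fb-Epn, Fb-Skn, Fb-Par without overlap. Its 8.69-fold difference between Fb-Epn and Fb-Par was the largest of any member in any comparison (log2 3.12, SE 0.20, adjusted p = 8.9e-09). It was 3.15-fold higher in Fb-Epn than Fb-Skn and 2.76-fold higher in Fb-Skn than Fb-Par. The subunits therefore differed in opposite directions between Fb-Epn and Fb-Skn: the ratio of Rrm1 to Rrm2 TPM was 0.837 to 0.972 in Fb-Epn, 3.78 to 5.96 in Fb-Par and 4.97 to 10.0 in Fb-Skn.

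Tk1 (ENSRNOG00000047314, rn6 chr10:106817601-106828884), the salvage kinase for thymidine, had 33.3, 33.4 and 34.4 TPM in Fb-Epn, 6.17, 6.75 and 5.96 TPM in Fb-Par, and 17.0, 23.5 and 22.6 TPM in Fb-Skn. No types overlapped. It was 5.40-fold higher in Fb-Epn than Fb-Par (log2 2.43, SE 0.12, adjusted p = 2.9e-10) and 3.70-fold higher in Fb-Skn than Fb-Par (log2 -1.89 for Fb-Par against Fb-Skn, SE 0.12, adjusted p = 6.0e-09). Tyms moved much less, by 0.38 over Fb-Skn (adjusted p = 0.0094) and 0.72 over Fb-Par on the log2 scale, and the first of these calls was lost in 8 of the 9 fits without 1 library, all but that without Fb-Par replicate 3. Summed over the 4 genes, Fb-Epn and Fb-Skn had nearly the same level (184 ± 5.93 TPM and 184 ± 4.94 TPM, mean ± SD, n = 3), made up differently, and Fb-Par had 62.4 ± 3.67 TPM.

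**Figure D3:**
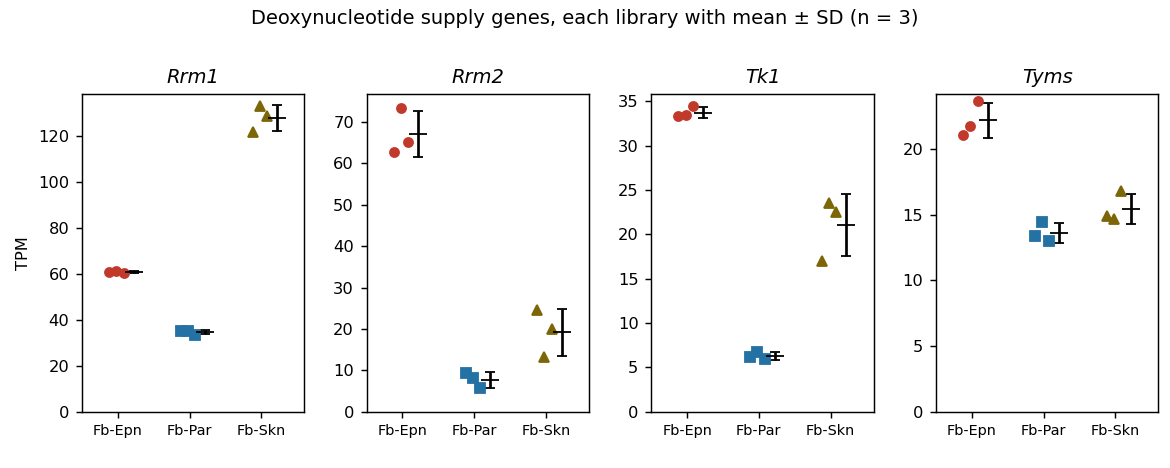
TPM of Rrm1, Rrm2, Tk1 and Tyms in each library, with the mean and SD of the 3 libraries of each type as a black bar beside the points; each vertical axis starts at 0 and has its own scale. Rrm1 is highest in Fb-Skn (122.0 to 133.1 TPM), and the other 3 genes are highest in Fb-Epn.

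The regulators were all 3 higher in Fb-Epn. Ccne1 (ENSRNOG00000014786, rn6 chr1:94485832-94494980), cyclin E1, which drives entry into S phase with Cdk2, had 16.6, 19.2 and 21.3 TPM in Fb-Epn, 13.4, 12.5 and 13.9 TPM in Fb-Par, and 13.6, 10.8 and 12.2 TPM in Fb-Skn. The Fb-Epn libraries were highest, and the others overlapped. The difference was 1.41-fold over Fb-Skn (log2 0.50, SE 0.13, adjusted p = 0.0042) and 1.44-fold over Fb-Par. Each call was lost in 4 of the 9 fits without 1 library: Fb-Epn replicate 2 or 3 for both, Fb-Skn replicate 2 or 3 for the first, and Fb-Par replicate 1 or 2 for the second. Cyclin E2 (Ccne2) differed more, by 1.16 and 1.36 on the log2 scale, but shares its span with Ints8 on the opposite strand, which had up to 548 counts. E2f8 (ENSRNOG00000022537, rn6 chr1:104187100-104202591), a repressor of the E2F family that is itself switched on in S phase, had 4.39, 3.21 and 3.96 TPM in Fb-Epn, 0.971, 0.401 and 0.533 TPM in Fb-Par, and 1.47, 1.12 and 1.35 TPM in Fb-Skn. It was lowest in Fb-Par without overlap, at 5 to 58 counts per library over the 3 types. Its log2 fold change was 2.57 over Fb-Par (SE 0.32, adjusted p = 9.4e-06) and 1.40 over Fb-Skn. Fb-Par against Fb-Skn missed the threshold (log2 -1.17, SE 0.35, adjusted p = 0.011).

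Among the genes of chromatin and histone supply, Uhrf1 (ENSRNOG00000048411, rn6 chr9:10738222-10757954), which guides DNA methylation to the newly made strand, had 16.9, 17.9 and 18.0 TPM in Fb-Epn, 2.27, 3.61 and 3.17 TPM in Fb-Par, and 5.38, 4.85 and 5.08 TPM in Fb-Skn. The types were separate. Uhrf1 was 5.90-fold higher in Fb-Epn than Fb-Par (log2 2.56, SE 0.14, adjusted p = 9.5e-10), 3.12-fold higher than Fb-Skn, and lower in Fb-Par than Fb-Skn (log2 -0.92, SE 0.15, adjusted p = 1.1e-04). Chaf1b, a subunit of the histone chaperone CAF-1, was higher in Fb-Epn by 1.59 and 1.73 on the log2 scale.

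Slbp (ENSRNOG00000037162, rn6 chr14:82356916-82366368) binds the stem-loop of histone mRNAs and lets them be made in S phase. Its level was 60.2, 61.7 and 59.2 TPM in Fb-Epn, 50.7, 45.3 and 44.2 TPM in Fb-Par, and 32.1, 33.3 and 29.1 TPM in Fb-Skn. The order was Fb-Epn, Fb-Par, Fb-Skn with no overlap, and Slbp was the only member called higher in Fb-Par than Fb-Skn (log2 0.42, SE 0.08, adjusted p = 3.4e-04).

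**Figure D4:**
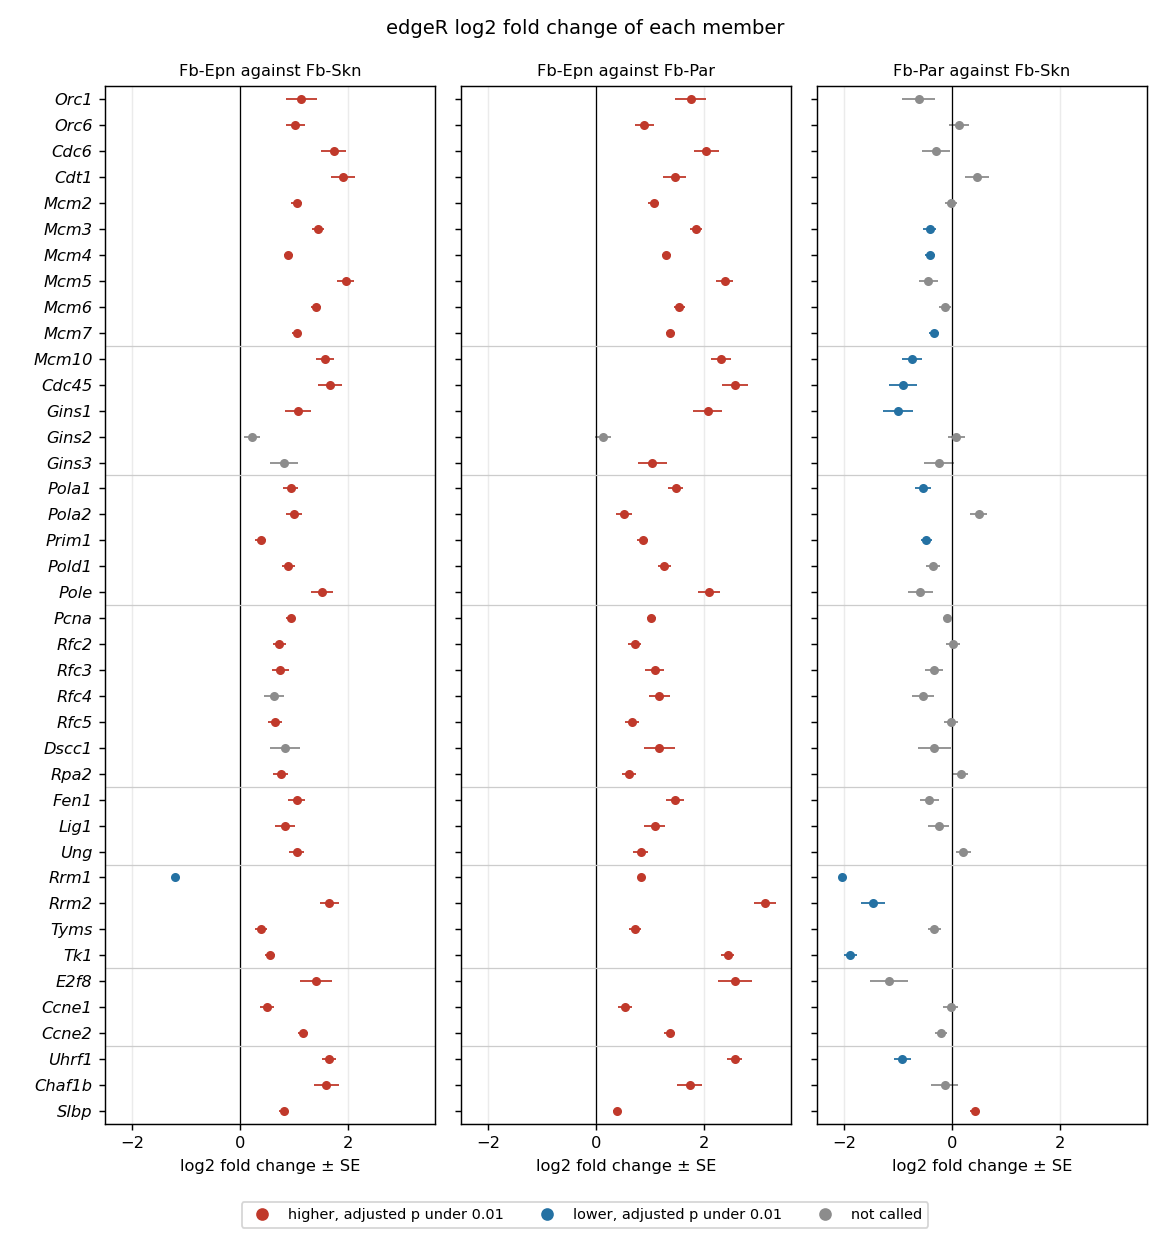
edgeR log2 fold change of each member with its SE in the 3 comparisons, in red where called higher, blue where called lower and grey where not called; horizontal lines divide the roles. The first 2 panels lie right of 0 except for Rrm1 against Fb-Skn, and in the third most genes lie near 0, with Rrm1, Tk1 and Rrm2 furthest to the left.

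Other genes of replication and of the cell cycle, on lists written by hand, gave the setting. Of 61 tested genes of replication, the replication checkpoint and S phase outside the 40, 37 were higher in Fb-Epn than Fb-Skn and 1 lower, 38 were higher than Fb-Par and 0 lower, and 4 were higher and 7 lower in Fb-Par against Fb-Skn. The medians were 0.60, 0.66 and -0.10 on the log2 scale. In the same order, 23.0%, 20.2% and 23.2% of all tested genes were called higher, and 20.9%, 18.6% and 22.4% lower. Named by the size of the change, Cdca7 and Clspn were among the highest over Fb-Skn (log2 2.79 and 1.98), and Cdca7, Ccna2 and Asf1b over Fb-Par (2.95, 2.80 and 2.77). In Fb-Par against Fb-Skn, Ccna2, Asf1b and Chtf18 were lower (-1.90, -1.45 and -1.08). The gene called lower in Fb-Epn than Fb-Skn was Chek1 (-0.19, adjusted p = 0.0017), named after its value was seen.

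Genes of mitosis were also highest in Fb-Epn, with Fb-Skn above Fb-Par. Of 27 tested, 26 were higher in Fb-Epn than Fb-Skn, 27 were higher than Fb-Par, and 26 were lower in Fb-Par than Fb-Skn, with medians of 0.94, 2.29 and -1.40. The shares of all tested genes called in those directions were 23.0%, 20.2% and 22.4%. Top2a, which untangles copied chromosomes, led Fb-Epn over Fb-Par (log2 3.02), and Ube2c, Mybl2 and Cenpf led Fb-Par against Fb-Skn (-1.94, -1.90 and -1.89). The summed mitosis level was 579 ± 7.05 TPM in Fb-Epn, 117 ± 0.171 TPM in Fb-Par and 275 ± 6.03 TPM in Fb-Skn, while the licensing genes summed to 85.8 TPM in Fb-Par and 90.0 TPM in Fb-Skn. Within the 40, the members lower in Fb-Par by over 1 on the log2 scale and called were Rrm1, Rrm2 and Tk1. The difference between the lists was not tested.

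The last list held 14 tested genes of the gate from G1 to S phase: D cyclins and their kinases, inhibitors of cyclin kinases, Rb1, Rbl2 and E2f4. Of these, 3 were higher and 8 lower in Fb-Epn than Fb-Skn, beside 23.0% and 20.9% of all tested genes. Against Fb-Par, 5 were higher and 8 lower in Fb-Epn, beside 20.2% and 18.6%. Fb-Par against Fb-Skn had 4 higher and 4 lower, beside 23.2% and 22.4%. The 8 lower in Fb-Epn against Fb-Skn included the drivers Ccnd1, Ccnd2, Ccnd3, Cdk4 and Cdk6, at -0.19 to -0.89 on the log2 scale. Against Fb-Par these drivers split. Ccnd1 was higher in Fb-Epn (log2 0.74), Cdk4 was not called (0.04), and Ccnd2, Ccnd3 and Cdk6 were lower (-1.42, -0.33 and -1.30). The 6 tested inhibitors split in both comparisons with Fb-Epn, and those outside the naming rule are named after their values were seen. Cdkn1a, Cdkn2a and Cdkn2b were lower in Fb-Epn (log2 -1.23, -3.58 and -2.29 against Fb-Skn, and -1.30, -2.75 and -3.44 against Fb-Par). Cdkn1b, Cdkn1c and Cdkn2c were higher (0.43, 1.15 and 1.13 against Fb-Skn, and 0.46, 2.62 and 1.33 against Fb-Par).

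**Figure D5:**
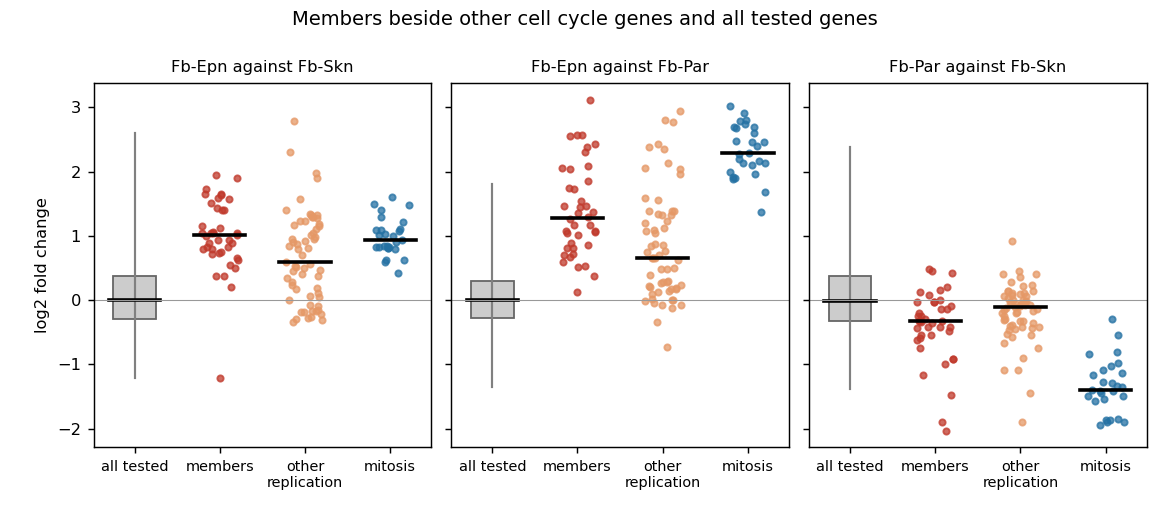
log2 fold change of the 40 members, 61 other replication genes and 27 mitosis genes (points, with a black line at the median), beside all 13273 tested genes (box from the 25th to the 75th percentile, whisker from the 5th to the 95th, line at the median). In Fb-Par against Fb-Skn the median is -0.33 for members, -0.10 for other replication genes and -1.40 for mitosis genes.

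Members with and without the promoter word were set side by side. The 16 members with a word had a median log2 fold change of 1.04 against Fb-Skn, 1.22 against Fb-Par and -0.29 for Fb-Par against Fb-Skn. The 17 without had medians of 0.89, 1.02 and -0.36. Their ranges overlapped throughout, at 0.38 to 1.95 with the word and -1.21 to 1.66 without against Fb-Skn. In Fb-Par against Fb-Skn, 4 of the 16 with a word and 6 of the 17 without were called lower. These values are descriptions, with no test.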

How the data were processed

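The authors trimmed paired reads of 150 bp from directional poly(A) libraries with Trimmomatic 0.38, aligned them to rn6 with HISAT2 2.1.0 and, by the processing notes, counted them with featureCounts 1.6.3. Which annotation release was used, and whether counting used strand, is not given in the sources used here. Per gene, the authors deposited tables of raw counts, of TPM and of FPKM. Counts were tested with edgeR 4.0.16 (R 4.3.3) by the quasi-likelihood F test after TMM scaling and filterByExpr, all 9 libraries in 1 model, with Benjamini-Hochberg adjustment over the 13273 tested genes in each comparison and a threshold of 0.01. Standard errors were derived from the log2 fold change and F. The common coefficient of variation was 8.25%. Levels are the deposited TPM. The deposited FPKM served only as an alternative, as did DESeq2 1.42.0, limma 3.58.1, other scalings and filters, and leaving out each library. The edgeR script was checked on simulated counts. The members and lists were chosen with earlier results of these data known. All members may be named, with TPM in every library for the most abundant and the most changed member of each role, and for Gins2 and Tk1, which, like the Rrm1 promoter, were added after their values were seen. Of the other lists, at most the 3 largest called changes per comparison are named, and some listed genes are not reported here by name. Promoters were matched by Entrez identifier from RefSeq (GRCr8) and never joined to rn6 coordinates. Protein sequences were not used here.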

Additional observations from a re-analysis of the deposited data

How the results depend on the processing

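No called member changed direction in any alternative. Requiring a log2 fold change beyond 1 left 21 members higher and 1 lower in Fb-Epn than Fb-Skn. It left 28 higher and 0 lower in Fb-Epn than Fb-Par, and 0 higher and 3 lower in Fb-Par than Fb-Skn. A change beyond 2 left 0 higher and 0 lower in Fb-Epn against Fb-Skn, 10 higher in Fb-Epn than Fb-Par, and 0 higher and 1 lower (Rrm1) in Fb-Par against Fb-Skn. The number lower in Fb-Par than Fb-Skn, 12 in the reported fit, was 6 with library size only, DESeq2, limma on log2(TPM + 1), log2(TPM + 0.1) or log2(FPKM + 1), or only the 2 types compared, and 6 without Fb-Par replicate 2. The number higher there was 2 with library size only, with limma on either TPM scale and at an adjusted p under 0.05. Limma on log2(FPKM + 1) gave a median member log2 fold change of 0.98 for Fb-Epn over Fb-Par. It also called Gins2 higher in Fb-Epn than both other types. The cause of these differences was not tested. Without 1 library at a time, 30 to 35 members were higher and 1 lower in Fb-Epn than Fb-Skn, 35 to 39 higher and 0 lower than Fb-Par, and 1 higher and 6 to 10 lower in Fb-Par than Fb-Skn, with medians of 0.95 to 1.04, 1.24 to 1.33 and -0.40 to -0.30. Of 88 calls, 19 were lost in at least 1 of these 9 fits. The same replicate numbers did not mark shared deviations, and a fit with the replicate block gave 34 higher and 1 lower, 37 higher and 0 lower, and 1 higher and 9 lower. On the log2(TPM + 1) scale the median of all genes lay 0.13 above Fb-Skn for Fb-Epn and 0.12 above for Fb-Par, and the members' medians were 1.03 and -0.17 on that scale. Members with few counts, such as E2f8 and Orc1, were measured least precisely (SE up to 0.35 and 0.31).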

Other observations

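Rrm1 was the single member with its highest mean TPM in Fb-Skn, and the genes beside it on rn6 chromosome 1 were read, after its values were seen. Stim1, the neighbour before it, had 25.2 ± 1.38 TPM in Fb-Epn, 40.0 ± 0.692 TPM in Fb-Par and 41.8 ± 0.433 TPM in Fb-Skn (mean ± SD, n = 3), and was lower in Fb-Epn than Fb-Skn (edgeR log2 -0.87, SE 0.05, adjusted p = 2.1e-09). Olr59, an olfactory receptor gene further along, had 185 to 236 counts per library in Fb-Skn (14.3 ± 2.66 TPM), 1 to 4 counts in Fb-Epn and 2 to 4 counts in Fb-Par. Rhog was lower in Fb-Epn than Fb-Skn (log2 -0.25, adjusted p = 0.0048). Other genes of the region went the other way: Nup98 was higher in Fb-Epn than Fb-Skn (log2 0.35, adjusted p = 9.7e-05), as was Trpc2 (log2 1.70, adjusted p = 0.0018, at 4 to 8 counts in Fb-Skn), and Trim6 had 15 to 17 counts in Fb-Epn and 0 to 3 counts in Fb-Skn (adjusted p = 1.0e-03). Pgap2 and Trim34 were not called. Trim21 and Trim68, which lie between Rrm1 and Olr59, were not called in any comparison. Whether the neighbours' levels are related to that of Rrm1 was not tested.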
